A study of Mus musculus with 4 samples.

Results

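Cyclins and cyclin-dependent kinases (CDKs) are described here as the 43 protein-coding mouse genes, of 21938 in GENCODE release M21, that carry a plain cyclin symbol (Ccn, a letter and at most 1 digit) or the symbol Cdk followed by a number. The rule uses symbols and no measured value, and it takes in 25 cyclins and 18 kinases on 18 chromosomes. Foxr2 was located on the DNA of the Foxr2 p53LOF line by CUT&RUN, in which an antibody brings a nuclease to a protein so that the DNA next to it is released and sequenced. The antibody recognised the V5 tag at the C-terminus of FOXR2, which the cells expressed under the CAG promoter from a piggyBac vector, together with CRISPR/Cas9 directed at Trp53. The line grew as neurospheres from a brain tumour induced by in utero electroporation (IUE) of C57BL/6J embryos, and both Foxr2 p53LOF libraries come from that line. The 2 V5 control libraries come from IUE-derived C57BL/6J cells of genotype H3.3G34R that lack the tag. Line, genotype and tag cannot be told apart in the comparison of these groups, and nothing in the labels says that the replicates were separate cultures. Each library was made from 500000 cells, fixed with 0.1% formaldehyde for 1 minute.

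A cyclin binds a CDK and switches it on. In the cell division cycle, D cyclins with Cdk4 and Cdk6 phosphorylate the retinoblastoma protein in G1, E cyclins with Cdk2 act at the entry to S phase, A cyclins work through S and G2, and B cyclins with Cdk1 drive mitosis. A further branch of the family works on RNA polymerase II: Cdk7 with cyclin H, Cdk9 with T cyclins, Cdk8 and Cdk19 with cyclin C, and Cdk12 and Cdk13 with cyclin K. The remaining members include kinases of neurons and cilia and cyclins of stress responses.

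The promoters of 7 members are shown because the results turn on them: Cdk7 had the highest promoter signal, Cdk9 and Ccnt1 encode a single complex, Cdk4 and Cdk1 are kinases of G1 and mitosis, and Ccnb2 and Ccnb3 are B cyclins without a site. Each runs 5′ to 3′ on the gene's own strand for 250 bases, 220 before and 30 from the RefSeq transcript start (RefSeq, GRCm38.p6). Capitals mark matches on either strand to 5 motifs. The ETS core is spelled CCGGAAGT and the GC box, a site of SP factors, is GGGCGG. The CCAAT box, bound by NF-Y, is spelled as its name. The cell cycle homology region, an element of late cell cycle promoters, is TTTGAA. The E-box is CACGTG, which MYC and related factors bind, and it was added after the Cdk4 sequence had been seen.
Cdk7, chr13:100730913-100731162, minus strand: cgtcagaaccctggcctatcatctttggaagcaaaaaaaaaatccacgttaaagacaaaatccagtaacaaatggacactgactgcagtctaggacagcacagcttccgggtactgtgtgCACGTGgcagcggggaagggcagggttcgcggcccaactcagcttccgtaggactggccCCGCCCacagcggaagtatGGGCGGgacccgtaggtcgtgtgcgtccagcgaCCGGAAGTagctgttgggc
Cdk9, chr2:32712755-32713004, minus strand: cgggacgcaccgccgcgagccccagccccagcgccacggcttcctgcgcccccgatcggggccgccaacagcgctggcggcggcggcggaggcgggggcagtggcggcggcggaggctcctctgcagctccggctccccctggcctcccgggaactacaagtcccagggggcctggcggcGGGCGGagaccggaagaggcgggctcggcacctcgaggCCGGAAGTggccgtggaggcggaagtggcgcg
Ccnt1, chr15:98567707-98567956, minus strand: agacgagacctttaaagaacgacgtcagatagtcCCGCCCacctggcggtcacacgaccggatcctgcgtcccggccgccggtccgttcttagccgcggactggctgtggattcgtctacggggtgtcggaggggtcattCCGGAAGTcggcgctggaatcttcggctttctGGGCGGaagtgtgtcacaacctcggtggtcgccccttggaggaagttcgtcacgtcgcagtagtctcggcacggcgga
Cdk4, chr10:127063315-127063564, plus strand: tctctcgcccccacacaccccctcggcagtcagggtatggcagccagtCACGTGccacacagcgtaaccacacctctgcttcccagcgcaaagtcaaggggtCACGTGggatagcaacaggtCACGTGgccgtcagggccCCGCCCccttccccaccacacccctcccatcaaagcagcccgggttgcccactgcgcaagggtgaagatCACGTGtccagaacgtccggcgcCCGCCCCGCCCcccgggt
Cdk1, chr10:69352883-69353132, minus strand: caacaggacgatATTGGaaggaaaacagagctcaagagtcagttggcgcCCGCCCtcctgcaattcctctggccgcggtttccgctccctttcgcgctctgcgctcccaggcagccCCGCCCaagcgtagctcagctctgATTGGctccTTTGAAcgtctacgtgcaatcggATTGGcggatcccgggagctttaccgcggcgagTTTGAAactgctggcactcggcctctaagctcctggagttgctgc
Ccnb2, chr9:70421525-70421774, minus strand: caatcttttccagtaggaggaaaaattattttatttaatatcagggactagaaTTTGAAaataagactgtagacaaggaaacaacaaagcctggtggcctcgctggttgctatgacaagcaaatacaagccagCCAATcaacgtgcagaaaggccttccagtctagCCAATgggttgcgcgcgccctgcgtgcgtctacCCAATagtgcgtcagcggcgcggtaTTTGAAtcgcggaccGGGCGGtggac
Ccnb3, chrX:7041590-7041839, minus strand: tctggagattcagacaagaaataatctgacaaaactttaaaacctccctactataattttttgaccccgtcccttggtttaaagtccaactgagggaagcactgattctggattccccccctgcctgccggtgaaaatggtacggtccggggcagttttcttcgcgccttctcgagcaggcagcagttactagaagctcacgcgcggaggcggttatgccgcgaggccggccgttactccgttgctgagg

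The Cdk7, Cdk9 and Ccnt1 promoters each held 1 ETS core, whose first base lay 11 bases after, 2 bases before and 80 bases before the RefSeq start. ETS factors are DNA-binding activators of many housekeeping and growth genes. Of the other member promoters found in the RefSeq table that of Cdk10 held this core, and 5.51% of all 16522 RefSeq promoters of the same 300 bases held it, as did 9.96% of those with a promoter site. Cdk4 carried 4 E-boxes, at positions -172, -118, -98 and -11 from its start, and 8.12% of all promoters and 11.1% of those with a promoter site held at least 1. Cdk6, Cdk7, Cdk8, Cdk18 and Cdk20 also had an E-box. Cdk1 held the cell cycle homology region at -71 and -15 and Ccnb2 at -167 and 4, and 15.7% of all promoters and 11.1% of those with a promoter site held it. It was also found at Ccnf, Ccni and Cdk16. No searched motif was found in the printed Ccnb3 stretch. A promoter entry was found for 34 of the 43 members (79.1%), under the 80% needed, so comparisons of motif or CpG content over all members were void. Entries were not found for Ccna2, Ccnd1, Ccnd2, Ccne2, Ccnh, Ccny, Cdk5, Cdk17 and Cdk19.

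Nearly all cyclin and CDK genes had V5 signal at the start in the tagged line and none had it there in the control. Peaks as deposited lay in the gene region, the body with 10 kb on either side, of 41 members in Foxr2 p53LOF replicate 1 and 42 in replicate 2, against 1 member in each V5 control library. At the promoters, taken as 1 kb to either side of each protein-coding transcript's start, the counts were 40, 42, 0 and 0. The groups did not overlap, and with 2 libraries a side the exact two-sided permutation test over libraries gave p = 0.333, the smallest p this design allows. The lists differed in length as a whole, with 31909 and 38580 peaks in the tagged line and 308 and 124 in the control. Over all protein-coding genes, 63.8% had a region peak in both tagged libraries, against 41 of 43 members (95.3%). A peak near the start in both tagged libraries was present for 51.5% of genes and for 40 members (93.0%). A control peak lay in the region of 0.556% of genes and of 1 member, Cdk8.

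A site was called reproducible where peaks of both tagged replicates that passed the filters of the study's methods covered the same bases. To pass, a peak needed a −log10 q above 6, a fold above 6 and a length under 10000 bp, and it could share no more than 9 bp with a control peak. The fold is the enrichment at the summit over the background of that library, with 1 added to both terms. Reproducible sites lay in the regions of 38 members (88.4%), against 50.0% of all genes. Within 1 kb of a start they lay at 33 members (76.7%), against 39.3% of all genes. These shares are descriptions of genes chosen by name, with no test of the list. Over all genes with a RefSeq promoter, a site was present at 68.0% of those with a CpG observed-to-expected ratio of at least 0.6 and at 14.9% of the others. Of the 34 members with such a promoter, 30 had a ratio of at least 0.6, and 73.3% of these had a site. The members without a RefSeq promoter all had a site, so this share covers only part of the members. The part of CpG content in the members' share was not tested.

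All 7 cyclins of transcription and splicing and all 6 transcription kinases had a promoter site. So did 7 of 11 cell cycle cyclins, 3 of 4 cell cycle kinases, 6 of 7 other cyclins and 4 of 8 other kinases. Over all genes the share was 39.3%, and these counts by group are descriptions. The folds of the 33 members with a promoter site had a median of 12.4 in replicate 1 (from 6.19 to 33.6) and 13.1 in replicate 2 (from 6.90 to 40.1). Over the 8599 genes with a promoter site the medians were 10.6 and 12.2. Of the 33, 19 were above the median of all these genes by the lower of their 2 folds, and the median member stood at percentile 61.2. The transcription kinases had the highest group medians, 14.1 and 19.7, and the other cyclins had 9.50 and 10.3.

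**Figure D1:**
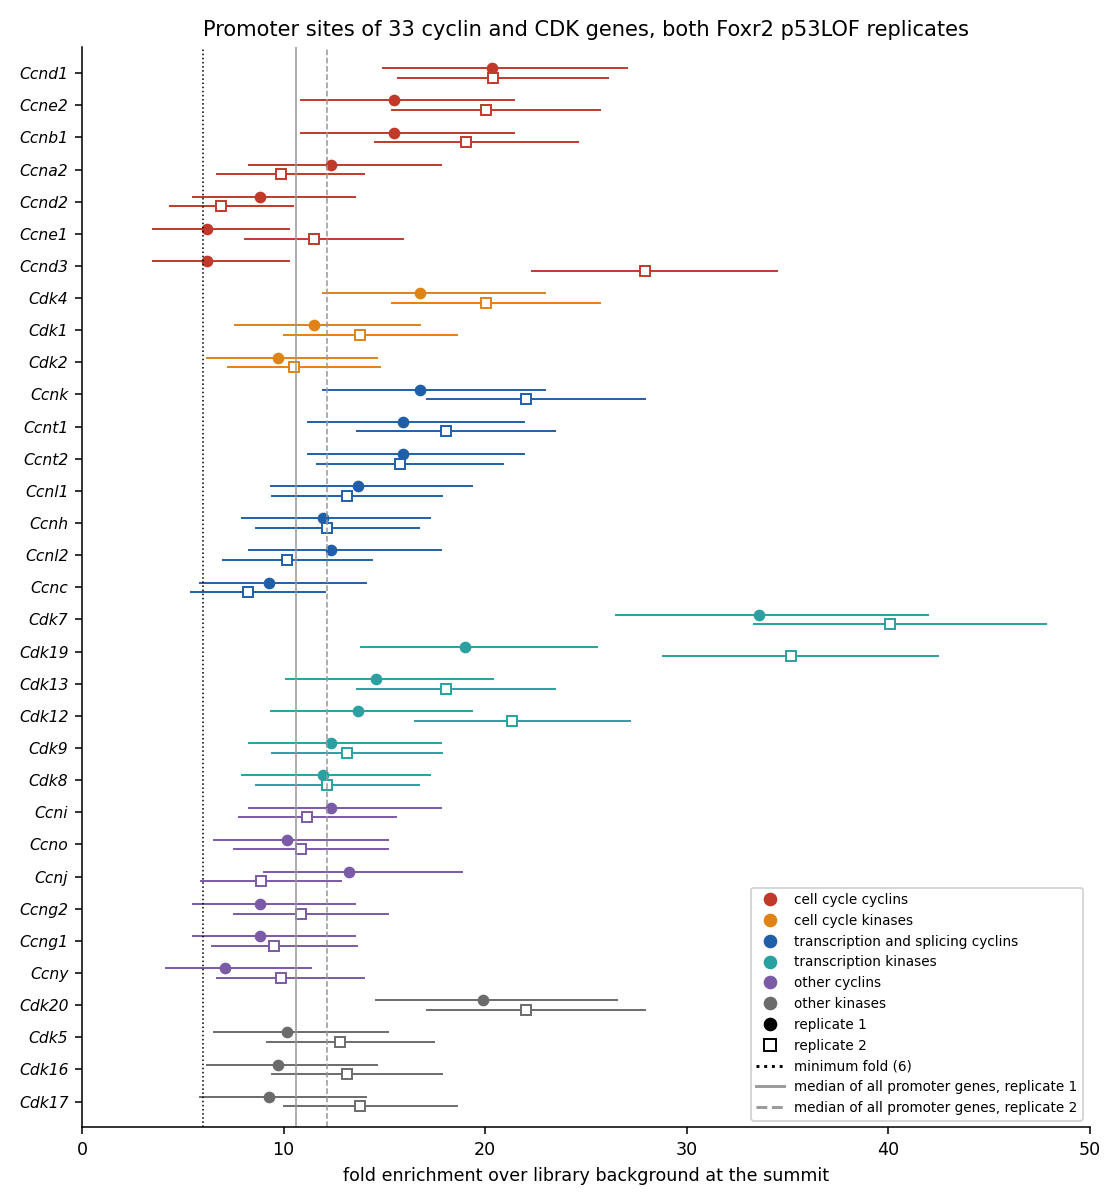
Fold enrichment at the summit (horizontal axis, fold over library background) of the promoter site of each of 33 members, by group, in Foxr2 p53LOF replicate 1 (filled circles) and replicate 2 (open squares). Bars are 95% Poisson intervals of the fragment count, the dotted line is the minimum fold of 6 and grey lines are the medians of all promoter genes. Cdk7 stood highest in both replicates, at 33.6 and 40.1, and the intervals of most neighbours in the order overlapped.

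The D cyclins differed among themselves. Ccnd1, which encodes cyclin D1, had a promoter fold of 20.3 in replicate 1 and 20.4 in replicate 2, at a site of 5448 bp (chr7:144938455-144943902). The summits rested on 45 and 61 fragments, and the exact 95% Poisson intervals, which cover counting error only, were 14.95 to 27.1 and 15.7 to 26.1. Ccnd1 was second among the members by the lower fold. Ccnd2 had folds of 8.84 and 6.90, and both its intervals lay below those of Ccnd1. At Ccnd3 the stretch at the start had a fold of 6.19 in replicate 1, with its summit 58 bp inside the gene, near the lowest fold that passes the filter. Its value of 27.9 in replicate 2 is not a measure of the start, since that peak had its summit 2876 bp upstream, at a site close to the start of the neighbouring gene Taf8. That upstream site had folds of 23.9 and 27.9.

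Their partner kinases also differed. Cdk4 had folds of 16.8 and 20.04 at a site of 2368 bp across its start (chr10:127062488-127064855), with intervals of 12.0 to 23.0 and 15.4 to 25.7. The summits lay 77 bp after and 90 bp before the nearest start, both downstream of the stretch printed above. Cdk6 had no promoter site. Its highest promoter peaks had folds of 6.19 and 5.59, and the second failed the minimum fold. Cdk6 instead had 2 intronic sites, 55793 and 107003 bp from the nearest start by the replicate 1 summit, with folds of 6.63 and 6.90 at the first and 6.19 and 7.89 at the other. All of these Cdk6 values lay close to the threshold.

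Of the cyclins that pair with Cdk2, Ccne2 had folds of 15.5 and 20.04, with summits 113 and 103 bp inside the gene. Ccne1, the other E cyclin, had folds of 6.19 and 11.5, from 13 and 34 fragments. In replicate 1 the intervals of Ccne2, 10.85 to 21.4, and Ccne1, 3.50 to 10.3, did not overlap, and in replicate 2 they did, at 15.4 to 25.7 and 8.06 to 15.9. Ccna2, the A cyclin of dividing somatic cells, had folds of 12.4 and 9.86. Ccna1, the germline A cyclin, had no peak in its region in replicate 1 and a promoter peak of fold 3.29 in replicate 2, which failed the fold and q filters. Cdk2 itself had folds of 9.72 and 10.5 at a site that also lay within 1 kb of a start of Pmel. A second site in the Cdk2 region, with folds of 13.3 and 13.5, was at the start of Rab5b.

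The mitotic genes showed a spread within one family. Ccnb1, which encodes the main mitotic cyclin, had folds of 15.5 and 19.05 at a site of 4424 bp (chr13:100783100-100787523). Its kinase Cdk1 had folds of 11.5 and 13.8 at a site of 946 bp, with summits 205 and 168 bp inside the gene. Ccnb2 had promoter peaks in both replicates but of low fold, 3.98 and 3.94, from 8 and 11 fragments, and both failed the fold and q filters. The intervals of Ccnb2, 1.97 to 7.41 and 2.13 to 6.79, lay below those of Ccnb1 in both replicates. Ccnb3, an X-linked B cyclin of the germline, had no peak in any of the 4 lists. Ccnf, an F-box protein that belongs to the cyclins by sequence, had promoter folds of 5.74 and 9.86 and lost its site because replicate 1 failed the minimum fold.

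Cdk7 had the highest promoter fold of all members. It encodes the kinase of the CDK-activating complex and of TFIIH, which phosphorylates RNA polymerase II at initiation. Its site of 2895 bp (chr13:100729580-100732474) had folds of 33.6 and 40.1, from 75 and 121 fragments. The 95% intervals were 26.5 to 42.0 and 33.3 to 47.8, and the lower fold was at percentile 99.1 of all promoter genes. Both summits lay upstream, 284 and 256 bp from the nearest start and 28 bp apart, just upstream of the printed stretch. Its cyclin, Ccnh, had folds of 11.9 and 12.2, and these intervals, up to 17.3 and 16.7, did not reach those of Cdk7. The assembly factor of the same complex, Mnat1, had promoter peaks of 7.95 and 4.93, of which the second failed the filter.

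**Figure D2:**
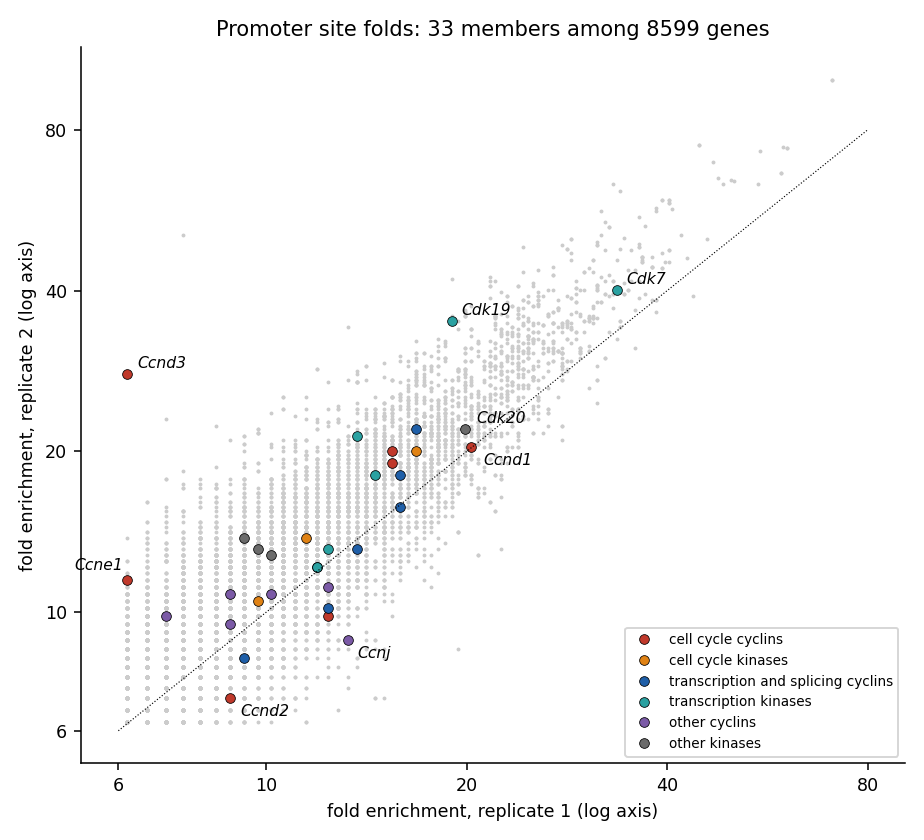
Promoter site fold in replicate 1 (horizontal, log axis) against replicate 2 (vertical, log axis) for 33 members, coloured by group, over all 8599 genes with a promoter site in grey. The dotted line marks equal folds. Most members follow the cloud, and Ccnd3 stands off it at 6.19 and 27.9.

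The genes of P-TEFb, the complex that releases paused RNA polymerase II, all had promoter sites. Its kinase Cdk9 had folds of 12.4 and 13.1, with summits 725 and 265 bp upstream of the nearest start. Its cyclins Ccnt1 and Ccnt2 had folds of 15.9 and 18.1, and of 15.9 and 15.8. The intervals of the 3 genes overlapped in both replicates. Hexim1 and Larp7, which hold P-TEFb inactive with 7SK RNA, had promoter folds of 13.7 and 19.4, and of 22.5 and 27.9.

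The Mediator kinases Cdk8 and Cdk19, close paralogs, had unequal folds. Cdk19 had folds of 19.0 and 35.1 with both summits at the same base, 302 bp upstream of the nearest start. Cdk8 had folds of 11.9 and 12.2. The intervals of the paralogs overlapped in replicate 1 (13.8 to 25.5 and 7.95 to 17.3) and did not in replicate 2 (28.8 to 42.5 and 8.61 to 16.7). Their cyclin, Ccnc, had folds of 9.28 and 8.21. The other subunits of this Mediator module, Med12 and Med13, gave a single promoter peak of fold 3.61 in replicate 2 and promoter folds of 16.3 and 18.7.

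Cdk12 and Cdk13, which phosphorylate elongating RNA polymerase II, had folds of 13.7 and 21.3, and of 14.6 and 18.1. Ccnk, the cyclin of both, had folds of 16.8 and 22.0 at a site that also lay near a start of Setd3. The values of all 3 overlapped within counting error. The splicing cyclins Ccnl1 and Ccnl2 had folds of 13.7 and 13.1, and of 12.4 and 10.2.

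Among the other kinases, Cdk20, a kinase of cilia and growth control, stood highest with folds of 19.9 and 22.0 at a site with both summits in a coding exon, 316 and 321 bp inside the gene (chr13:64431922-64433230). Cdk5, the CDK of neurons, had folds of 10.2 and 12.8 at a site that also lay near a start of Slc4a2, and its activator Cdk5r1 had 17.2 and 16.8. Cdk16 had folds of 9.72 and 13.1, and Cdk17 of 9.28 and 13.8. The replicate 2 summit of Cdk17 lay 1283 bp past the nearest start, and the replicate 1 summit 18 bp before it. Cdk10, Cdk14, Cdk15 and Cdk18 had no promoter site. Among the other cyclins, Ccnj, Ccni, Ccno, Ccng1, Ccng2 and Ccny had lower folds between 7.07 and 11.2. The p53 target Ccng1 had 8.84 and 9.53. The Ccni site also lay near a start of 2010109A12Rik.

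Of the 10 members without a promoter site, 7 had promoter peaks in both tagged replicates, of which the filters removed 1 or both. They were Ccnb2, Ccnf, Ccnq, Cdk6, Cdk10, Cdk14 and Cdk18. At Ccnq, the cyclin of Cdk10, the folds were 5.74 and 5.91, and at Cdk10 itself 4.86 and 5.26. At Cdk18 they were 5.30 and 5.91, and at Cdk14, a partner of cyclin Y, 4.86 and 4.93. Cdk15 had a promoter peak in replicate 2 alone, of fold 3.94. The interval of every one of these peaks except those of Ccna1 in replicate 2 and Ccnf in replicate 2 included the threshold of 6. The CpG observed-to-expected ratios of the promoters of Cdk15 and Cdk18, 0.335 and 0.234, were the lowest of these 10, and those of the other 8 lay between 0.754 and 1.07. Ccnb3, with no peak, was at 0.948. Of the 4 members with an entry and a ratio under 0.6, the other 2, Ccnd3 at 0.577 and Cdk16 at 0.590, had a promoter site.

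**Figure D3:**
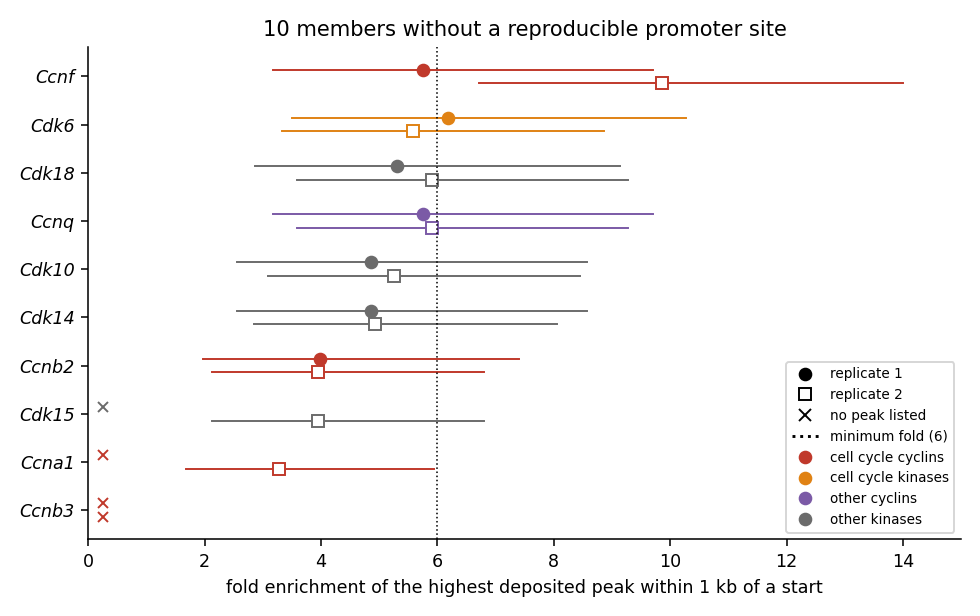
Fold enrichment (horizontal axis) of the highest deposited peak within 1 kb of a start for the 10 members without a reproducible promoter site, in replicate 1 (filled circles) and replicate 2 (open squares). Bars are 95% Poisson intervals of the fragment count, crosses mark a library with no promoter peak listed, and the dotted line is the minimum fold of 6. Only Ccnf in replicate 2, at 9.86, and Cdk6 in replicate 1, at 6.19, lie above the line.

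The promoter summits sat close to the starts. The median distance between summit and nearest start of the gene was 248 bp in replicate 1 and 202 bp in replicate 2, and 29 and 28 of the 33 summits lay within 500 bp. Summits were upstream of the nearest start at 19 members in each replicate, and in replicate 1 they lay upstream of the whole gene at 15. The 2 replicate summits of a member were a median of 105 bp apart, and 22 of 33 were within 200 bp of each other. The largest gap, 3124 bp, was that of Ccnd3. Replicate 2 had the higher fold at 25 of 33 members, and at 75.1% of all genes with a promoter site. The ratio of replicate 2 to replicate 1 had a median of 1.14 in members and 1.15 in all these genes, and ran from 0.669 at Ccnj to 4.51 at Ccnd3. The rank correlation of the replicates over the 33 members was 0.656, and 0.826 over all 8599 genes, both across genes that share a library. The members' value includes Ccnd3, whose replicate 2 fold is that of the upstream peak, and it was not computed without Ccnd3.

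**Figure D4:**
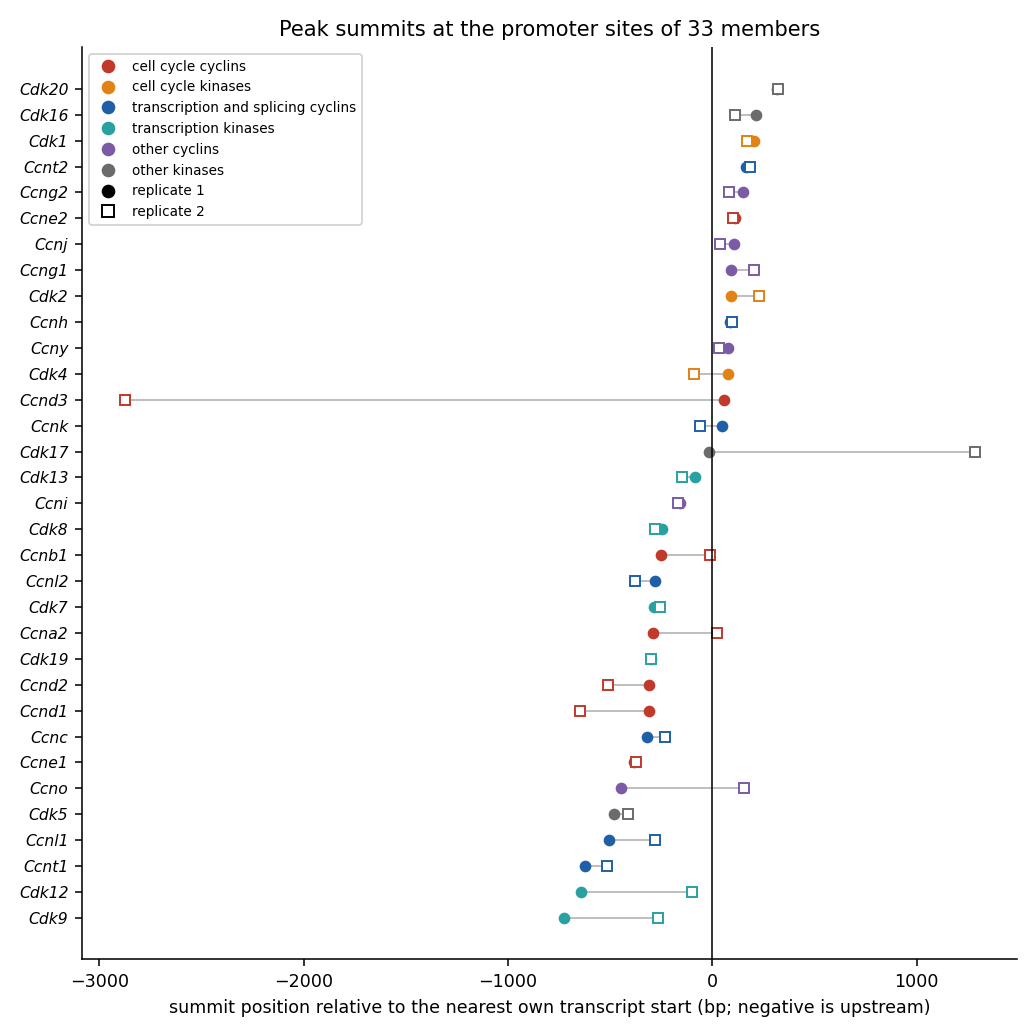
Position of the peak summit (horizontal axis, bp from the nearest transcript start of the member, negative is upstream) at the promoter site of each of 33 members, in replicate 1 (filled circles) and replicate 2 (open squares), joined by a grey line. Most summits lie within 500 bp of a start, and the replicate 2 summit of Ccnd3 lies 2876 bp upstream.

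Of the 53 reproducible sites in the members' regions, 34 were promoter sites and 19 lay farther away, in 15 members. Of the 19, 9 were within 1 kb of the start of another protein-coding gene. The highest of them was not at a cyclin start: in the Ccnt1 region a site at the start of Kansl2 (chr15:98531955-98535109) had folds of 59.7 and 74.3, against 15.9 and 18.1 at Ccnt1 itself. The others of this kind were at Mrpl20 and Aurkaip1 in the Ccnl2 region, Rnf6 near Cdk8, Tspan31 near Cdk4, Rab5b near Cdk2, Med1 near Cdk12, Cenph near Ccnb1 and Taf8 near Ccnd3. The Med1 site had folds of 14.1 and 17.1, and the Aurkaip1 site 13.3 and 11.8. By the lower fold, both stood above the promoter sites of Cdk12 and Ccnl2. The other 10 distal sites had no such start, and 8 lay in introns of Cdk6, Cdk14, Cdk15, Cdk17, Cdk18 and Cdk19. Of the others, 1 lay upstream of Cdk17, with folds of 6.63 and 9.86. The highest was at Cdk19, 22878 bp past the nearest start, with folds of 11.0 and 17.1. Cdk15 had folds of 7.95 and 10.2, and Cdk18 of 9.28 and 9.86, at single intronic sites. Cdk14 had 6.19 and 8.54 at 1 intronic site, and Ccnq had 6.63 and 9.20 at a site 5776 bp past its start, downstream of the gene. Cdk6, Cdk14, Cdk15, Cdk18 and Ccnq had sites at a distance and none at the start.

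Cdk8 was the only member with a control peak. A narrow intronic peak of 363 bp in replicate 1, 29737 bp from the nearest start, had folds of 32.3 and 31.5 in the tagged libraries and 22.3 and 18.9 in the V5 control libraries. It was present in all 4 libraries and was removed by the control overlap. No control peak lay near the start of Cdk8.

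In 200 bp windows at the centres of the promoter sites, which could be read for all 33 members, the ETS core was found at Ccnt1 and Cdk9 (6.06%), against 3.81% of 7484 promoter sites. The ETS core of Cdk7 was cut by the edge of its window. A GC box was found at 17 members (51.5%, against 45.0%) and a CCAAT box at 7 (21.2%, against 20.8%). The cell cycle homology region was found at Cdk16 and Cdk20 (6.06%, against 6.84%), and the CRE (TGACGTCA) at Ccnl1, against 1.31%. The forkhead letters TGTTTAC were found at Ccnd3, against 1.31%. The E-box was found at Ccnl2, Cdk7 and Cdk20 (9.09%, against 5.75%), and not in the window of Cdk4. NRF1 and YY1 motifs were found at 0 of 33, against 0.722% and 0.815%. These matches are descriptions of letters in a window.

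The promoter folds varied between chromosomes over all genes. Among the 18 chromosomes with members, the median lower fold of promoter genes ran from 7.89 on X to 11.9 on chromosome 13. Cdk7, Cdk13, Cdk20, Ccnb1, Ccnh and Ccno are on chromosome 13. With each fold divided by the median of its chromosome, Cdk7 stood at percentile 98.3, against 99.1 before, and Ccnb1 at 72.4, against 81.4. Ccnh moved from 64.8 to 48.3 and Ccno from 49.7 to 32.6. Shifts on other chromosomes went either way: Cdk16 on X had the largest, from 45.55 to 68.9, Cdk5 rose from 49.7 to 63.1 and Cdk2 from 45.55 to 54.7, and Ccng1 fell from 35.5 to 17.8. The part of chromosome level in the order of members was not tested further.

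The genes that control cyclins and CDKs were listed by role and were not members. Of these 38 partners, 29 had a site in the region and 25 at a start, where 50.0% and 39.3% of all genes had one. Their promoter folds had medians of 9.72 and 12.8, against 10.6 and 12.2 over all genes with a promoter site. These counts are descriptions, as are those by role. Of 7 CDK inhibitors 4 had a promoter site, of 3 pocket proteins all did, and of 8 E2F factors 5 did. Of 5 phosphatases and inhibitory kinases of CDKs 4 had one, and all 4 cyclin degradation genes did, as did 5 of 11 other partners. The highest was Cks1b, a CDK-binding adaptor, at 30.05 and 43.4, followed by E2f3, a transcription factor of S phase genes, at 25.2 and 34.5. Rb1 had folds of 9.28 and 12.2, and Cdkn1a, a p53 target that encodes the inhibitor p21, had 7.95 and 7.89, the second at a summit 1328 bp from the nearest start. Cdkn1b, which encodes the inhibitor p27, and Cks2 had replicate 1 promoter peaks of 13.3 and 15.02 but no site. Their replicate 2 peaks were 15212 and 11099 bp long and exceeded the length limit. The summits of those long peaks lay 8068 and 6615 bp from the nearest start, so their folds are no measure of the start. Cdkn1c, an imprinted inhibitor gene, had no promoter peak in either tagged library.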

How the data were processed

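CUT&RUN peak lists of 4 libraries, 2 Foxr2 p53LOF and 2 V5 control, were grouped by the sample labels. Trimming, alignment to mm10 (BWA 0.7.17), duplicate removal and peak calling in each library (MACS2 2.2.7.1) were done by the authors before deposit. Replicates were not pooled. The deposited fold (signalValue) is a ratio of the summit to the library background, with the same constant added to both. The deposited −log10 p and q values are those of MACS2, and the deposited score is derived from −log10 q. The deposited summit is an offset within the peak.

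Fragments at a summit were recovered from the fold and p, with library backgrounds of 1.26, 2.04, 1.69 and 0.642. The fold was read as the fragments plus 1 over the background plus 1. All folds up to 30 gave whole numbers within 0.02. The minimum fold corresponds to 13 fragments in replicate 1 of the tagged line and 18 in replicate 2. Read totals are unknown from a peak list, so precision is given by exact 95% Poisson intervals. Peaks were filtered as the study's methods state, and the 13418 and 14864 that passed gave 11947 reproducible sites (shared by at least 1 bp). The site of a gene is the one with the highest lower fold. The intersection with open chromatin used in the study was not applied. Positions are GRCm38, counted from 1, with GENCODE M21 starts of protein-coding transcripts, present for 21853 genes. Promoter sequences came from RefSeq and matched the genome.

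Full values are given for the 10 members with the highest lower fold, the A, B, D and E cyclins with Cdk1, Cdk2, Cdk4 and Cdk6, members without a peak in 1 or both tagged libraries, members whose promoter peaks a filter removed, members with a control peak, and members whose highest site is distal. The members and lists were chosen with earlier results of these data known. The steps were tested on simulated data. Alternatives covered the filters, windows, overlap, control peaks and each replicate left out.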

Additional observations from a re-analysis of the deposited data

How the results depend on the processing

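A minimum fold of 10 left 23 members with a site in the region and 21 with a promoter site, and raised the median promoter folds to 14.6 and 18.1. With no minimum on fold, 39 and 36 members had them. All the other alternatives run on these counts and medians kept the counts within 1.5 times and the medians within the spread between replicates. Leaving out each library in turn gave 38 to 39 members with a site in the region, 33 to 34 with a promoter site, and medians of 12.4 and 13.1. Leaving out sites near another gene's start, an alternative chosen after seeing the data, left 29 members with a promoter site. The share of all genes with a site was counted at the main settings alone. The member counts under the alternatives therefore have no such share beside them. Paired by replicate number, the tagged and control libraries gave p = 0.5 in an exact sign-flip test, the smallest that 2 pairs allow, and the labels do not say that the numbers pair them. Dividing by the chromosome median moved 20 of 33 members' percentiles by more than the spread between replicates and 4 across the middle, and taking the peak whose summit was nearest a start moved 1, Cdk4, from percentile 84.97 to 85.4. Folds near 6 rest on 13 to 18 fragments and are the least certain.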

Other observations

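Genes with names like those of the members were looked at after their values had been seen. Of 16, 11 had a promoter site, where 39.3% of all genes had one. Their median folds were 11.9 and 13.8, against 10.6 and 12.2 over all genes with a promoter site. Cdk11b, a kinase of transcription and splicing whose symbol the rule did not match, had folds of 8.39 and 11.5, and Ccnyl1, a paralog of Ccny, had 11.5 and 11.8. Cdk5rap3, whose product binds a Cdk5 activator, had folds of 33.6 and 32.5, close to those of Cdk7. Cdkl1 and Cdkl4, 2 of the cyclin-dependent kinase-like genes, had no promoter peak in either tagged library.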
